A study of Homo sapiens with 6 samples.

Results

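Described here are 10 genes of the MYC, MAX and MXD network in A549, an established human cell line of lung adenocarcinoma origin, after siRNA against RPS19. The members are MYC, MAX, MXD1, MXD3, MXD4, MXI1, MNT, MLX, MLXIP and MGA, taken by gene symbol from the deposited gene table, with 1 row each on a reference chromosome. All 10 passed the filter on low counts, out of 63152 genes counted and 17171 tested. The control group (siOTP) received a non-targeting siRNA and the other group (siRPS19) a pool against RPS19, whose product is part of the 40S ribosome. Each siRNA was used at 10 nM by reverse transfection, RNA was taken at 72 hours, and each group holds 3 biological replicates from the same 3 dated rounds. The pool and the control come from different product lines (siGENOME and ON-TARGETplus), so the type of reagent cannot be told apart from the target. These are data from 1 cell line, and they measure mRNA and not protein.

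MYC is a basic helix-loop-helix leucine zipper transcription factor that binds E-box DNA, with the core letters CACGTG, only as a dimer with MAX. The MXD proteins, MXI1 and MNT also dimerise with MAX and bind the same sites, but they recruit the SIN3-HDAC corepressor and lower transcription, so they are known as antagonists of MYC. MGA is a large MAX partner of a Polycomb complex, and MLX is a MAX-like protein whose partner MLXIP (MondoA) responds to glucose-derived metabolites. MYC is known for driving ribosome production and growth, and the MXD proteins for accompanying arrest and differentiation.

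RPS19 itself lay between 36.0 and 44.6 CPM (counts scaled to library size) in siRPS19 and between 1374 and 1567 CPM in siOTP. Counts on genes ran from 20814110 to 23889372 per library. Most genes differed between the groups, 78.3% of those tested at an adjusted p under 0.05, with 39.5% higher and 38.9% lower in siRPS19. A call on a single member is therefore common in these data, and sizes are given with each. Scaling libraries by their totals in place of TMM factors moved the median of all genes up by 0.29 on the log2 scale and turned the calls to 9114 higher and 4734 lower from 6778 and 6673, so directions are relative to the TMM scale. Counts of gene lists with library totals, given below, stand beside these calls and a median of 0.31 over all genes. Of 10 epithelial and A549 genes all were detected, although EPCAM was at 4.98 and 3.36 CPM in siOTP and siRPS19. Blood markers summed to at most 0.103 CPM in any library, with CD3E and HBB at 0 counts in all, and endothelial markers to at most 0.347 CPM. Fibroblast markers summed to 35.5 to 42.9 CPM in siOTP and 18.2 to 23.0 CPM in siRPS19, mostly COL1A1, with COL1A2, DCN and LUM each at a mean of 0.116 CPM or less. Within this list COL3A1 fell from a mean of 2.47 to 0.41 CPM with COL1A1, while PDGFRA rose from 0.55 to 3.42 CPM. The part of such cells in any result was not tested. In bulk RNA, fewer cells that express a gene and less of its RNA per cell cannot be told apart.

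Of the 10 members, 6 were higher and 4 lower in siRPS19, and the CPM of the groups did not overlap for any of the 10 (79.7% of all tested genes did not overlap). On the TMM scale the change was at least 2-fold for 5 of them, MYC, MXD1, MXD3, MXD4 and MLX, beside 30.9% of tested genes. With library totals, MYC (log2 fold change -0.81) and MLX (-0.76) were under 2-fold and MNT (1.11) was over it. The median size of the change was 0.94 on the log2 scale over the members and 0.62 over all genes tested. The MAX-binding antagonists held the widest spread, from a 6.09-fold fall of MXD3 to a 4.89-fold rise of MXD1.

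**Figure D1:**
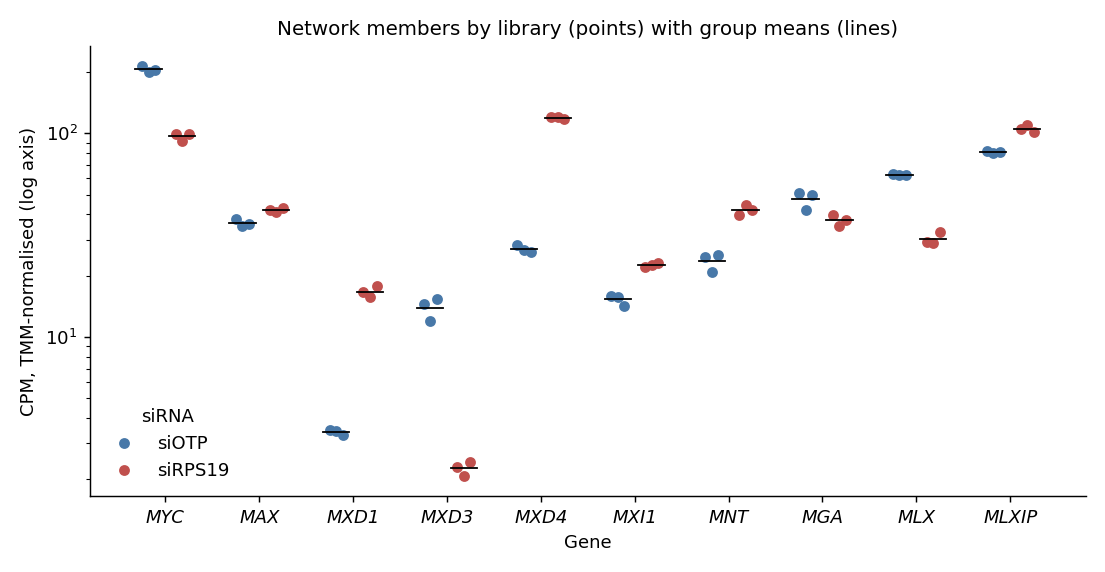
TMM-normalised CPM of the 10 members on a log axis, with 1 point per library (blue siOTP, red siRPS19) and a line at each group mean. MXD4 rose from 26.2 to 28.3 CPM in siOTP up to 117.5 to 120.2 CPM in siRPS19, while MYC fell from 200.8 to 213.0 CPM down to 91.7 to 99.1 CPM.

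MYC (ENSG00000136997, hg19 chromosome 8, 128747680 to 128753674) was the most abundant member per kilobase in both groups. Its CPM was 213.0, 200.8 and 204.4 in the siOTP libraries of replicates 1 to 3, and 98.9, 91.7 and 99.1 in those of siRPS19. The siRPS19 libraries were all lower, and replicate 2 was the lowest of each group. The log2 fold change was -1.09 ± 0.04 (SE, n = 3 each), a 2.13-fold fall (adjusted p = 1.81e-15, edgeR quasi-likelihood test). Within the 3 rounds of replicates, the log2 ratio of siRPS19 to siOTP was -1.11, -1.13 and -1.04. This change was larger in size than that of 72.6% of tested genes.

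The genes closest to MYC in pattern were sought by the distance in centred log2 CPM over the 6 libraries. The 5 nearest were PSMG1 (a proteasome assembly chaperone, distance 0.04), CAPN1 (a calpain protease, 0.05), CEBPG (a basic leucine zipper factor, 0.06), FAM178A (0.08) and COX6A1 (a cytochrome c oxidase subunit, 0.08). PSMG1, for example, went from 55.6 ± 0.98 to 26.2 ± 1.19 CPM (SD, n = 3 each). With 2 groups, such closeness mostly reflects a like fold change.

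MAX (ENSG00000125952, hg19 chromosome 14, 65472892 to 65569413), the obligate partner, changed little on the TMM scale. It was at 37.8, 35.2 and 35.9 CPM in siOTP and 42.2, 41.3 and 43.0 CPM in siRPS19. All siRPS19 libraries were above all siOTP libraries, but the gap was narrow. The log2 fold change was 0.21 ± 0.05 (SE, n = 3 each; adjusted p = 0.000899), larger in size than that of only 18.6% of tested genes. It was 0.50 with library totals and 0.39 with upper-quartile factors, so its size depends on the scaling. MAX overlaps FNTB on the opposite strand, which had mean counts of 53 and 45 in siOTP and siRPS19.

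Promoter sequence from RefSeq (GRCh38.p14) was read for 9 of the 10 members. MYC was left out, so the counts below say nothing of its promoter. Each sequence covers the 250 bases before an annotated start, read 5′ to 3′ on the strand of the gene. CACGTG, which reads the same on both strands, was present in 3 of the 9 members, MXD4, MNT and MLX, and in 7.73% of 27305 genes with such a window. G and C made up 70.4%, 78.0% and 71.2% of these windows of MXD4, MNT and MLX, beside a median of 58.0% over all windows. The part of this make-up in the matches was not tested. The 3 windows are shown because CACGTG is the network's own binding motif, and MXD1 and MXD3 because they moved most in opposite directions. Capitals mark CACGTG.
MXD4 (chr4:2262110-2262359, minus strand): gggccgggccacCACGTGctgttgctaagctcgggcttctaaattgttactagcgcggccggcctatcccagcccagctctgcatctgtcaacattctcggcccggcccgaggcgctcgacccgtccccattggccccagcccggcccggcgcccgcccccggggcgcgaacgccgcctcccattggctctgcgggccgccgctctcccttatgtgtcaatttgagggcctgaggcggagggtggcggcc
MNT (chr17:2401061-2401310, minus strand): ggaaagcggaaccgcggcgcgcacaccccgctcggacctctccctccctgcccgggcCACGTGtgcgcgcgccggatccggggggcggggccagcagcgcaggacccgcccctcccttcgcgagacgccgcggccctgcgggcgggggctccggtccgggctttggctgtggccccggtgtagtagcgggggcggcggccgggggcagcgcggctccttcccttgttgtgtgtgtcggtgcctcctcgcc
MLX (chr17:42566850-42567099, plus strand): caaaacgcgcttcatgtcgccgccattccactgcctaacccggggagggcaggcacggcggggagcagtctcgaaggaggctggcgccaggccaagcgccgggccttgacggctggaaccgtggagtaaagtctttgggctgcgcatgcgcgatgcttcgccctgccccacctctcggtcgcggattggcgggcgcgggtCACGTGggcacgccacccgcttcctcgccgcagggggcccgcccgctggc
MXD1 (chr2:69914859-69915108, plus strand): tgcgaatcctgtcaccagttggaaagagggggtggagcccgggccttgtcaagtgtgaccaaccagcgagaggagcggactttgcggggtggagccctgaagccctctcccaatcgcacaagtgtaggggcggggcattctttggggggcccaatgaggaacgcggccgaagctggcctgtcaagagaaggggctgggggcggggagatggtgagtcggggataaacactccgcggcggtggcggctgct
MXD3 (chr5:177312753-177313002, minus strand): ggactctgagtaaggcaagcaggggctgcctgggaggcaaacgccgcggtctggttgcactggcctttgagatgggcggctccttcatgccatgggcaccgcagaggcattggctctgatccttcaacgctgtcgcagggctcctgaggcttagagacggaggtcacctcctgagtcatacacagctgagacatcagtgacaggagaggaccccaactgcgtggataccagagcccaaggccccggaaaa
The motif starts 238 bases before the start of MXD4, 193 before that of MNT and 50 before that of MLX. MXD4 and MNT rose and MLX fell, so members with these letters moved in either direction. The windows of MXD1 and MXD3 hold no CACGTG, which says only that the letters are not in these 250 bases. A match is a description of sequence, and no binding was measured.

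MXD4 (ENSG00000123933, hg19 chromosome 4, 2249159 to 2264021), an antagonist that recruits SIN3, rose 4.41-fold. Its CPM was 28.3, 26.6 and 26.2 in siOTP and 119.8, 120.2 and 117.5 in siRPS19. The siRPS19 libraries differed from each other far less than they did from siOTP. The log2 fold change was 2.14 ± 0.05 (SE, n = 3 each; adjusted p = 1.83e-19 in edgeR's test), larger in size than 91.0% of tested genes, with ratios of 2.08, 2.18 and 2.17 within the 3 rounds. Per kilobase it was the fifth member in siOTP and the second, after MYC, in siRPS19.

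MXD1 (ENSG00000059728, hg19 chromosome 2, 70124820 to 70170077), the founding MXD protein, rose from the lowest level of all members. It had 73, 68 and 64 counts in siOTP and 432, 363 and 430 in siRPS19. These equal 3.50, 3.44 and 3.30 CPM against 16.6, 15.7 and 17.8 CPM, so every siRPS19 library stood several-fold above every siOTP library. The log2 fold change was 2.29 ± 0.10 (SE, n = 3 each; adjusted p = 3.28e-14 in edgeR's test), and 2.25, 2.19 and 2.43 within rounds. MXD1 overlaps SNRNP27 on the same strand, whose mean count was 564 in siOTP and 630 in siRPS19.

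MXD3 (ENSG00000213347, hg19 chromosome 5, 176728462 to 176739758), the MXD member known to be expressed in S phase of cycling cells, moved the other way. Its CPM was 14.5, 11.9 and 15.3 in siOTP and 2.31, 2.08 and 2.44 in siRPS19. The siOTP libraries varied more here than for any other member (coefficient of variation 12.6%), but the lowest of them was still far above the highest siRPS19 library. MXD3 fell 6.09-fold, with a log2 fold change of -2.61 ± 0.13 (SE, n = 3 each; adjusted p = 1.36e-13), a size above that of 94.0% of tested genes. It overlaps PRELID1 on the opposite strand (mean counts 1677 and 908 in siOTP and siRPS19) and RAB24 on its own strand (57.0 and 105), and reads in the shared stretches cannot be separated by strand here.

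MXI1 (ENSG00000119950, hg19 chromosome 10, 111967363 to 112047123), also known as MXD2, rose 1.48-fold. It was at 15.9, 15.7 and 14.2 CPM in siOTP and 22.2, 22.6 and 23.1 CPM in siRPS19. The groups were well apart, with a log2 fold change of 0.56 ± 0.07 (SE, n = 3 each; adjusted p = 3.50e-07).

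MNT (ENSG00000070444, hg19 chromosome 17, 2287354 to 2304412), the antagonist that is widely expressed in growing and resting cells, rose 1.77-fold. Its CPM was 24.7, 20.9 and 25.3 in siOTP and 39.6, 44.4 and 41.8 in siRPS19. Replicate 2 held the lowest siOTP and the highest siRPS19 value, so the ratio within that round was 1.09 on the log2 scale against 0.68 and 0.73 in the others. The fitted log2 fold change was 0.83 ± 0.07 (SE, n = 3 each; adjusted p = 8.01e-10).

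Thus 4 of the 5 antagonist genes rose and MXD3 fell. The members of this repressor family therefore did not move as a block.

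**Figure D2:**
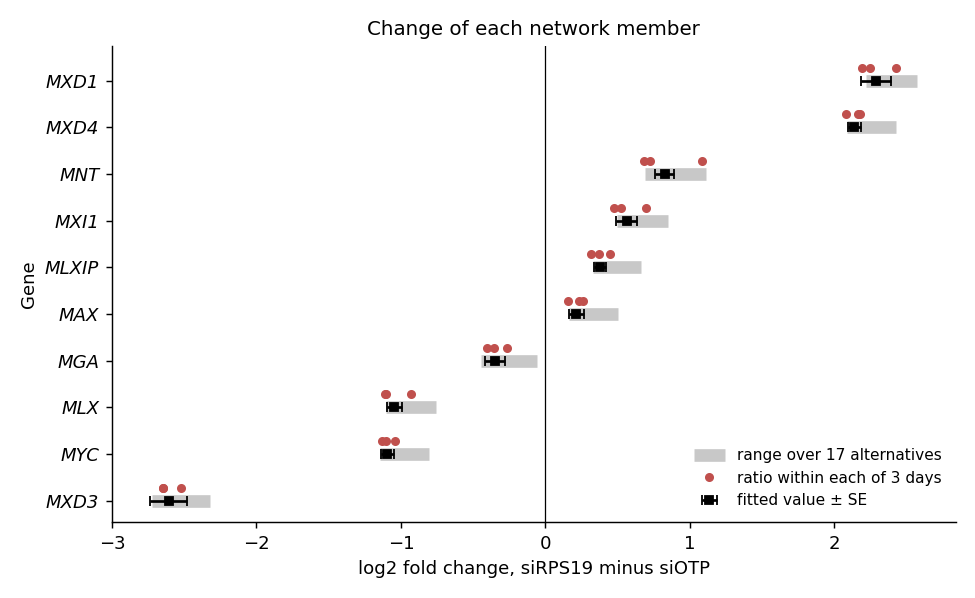
Fitted log2 fold change of each member (black squares, bars are SE), the ratio within each of the 3 rounds of replicates (red points) and the range over 17 alternative settings (grey). MXD1 at 2.29 and MXD4 at 2.14 lie at the upper end and MXD3 at -2.61 at the lower end, and only the grey range of MGA comes close to 0.

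MGA (ENSG00000174197, hg19 chromosome 15, 41913422 to 42062141) was slightly lower. It was at 51.1, 42.1 and 49.5 CPM in siOTP and 39.9, 35.0 and 37.4 CPM in siRPS19. The groups did not overlap, but the lowest siOTP and the highest siRPS19 library were close. The log2 fold change was -0.35 ± 0.07 (SE, n = 3 each; adjusted p = 0.00022), but with libraries scaled by their totals it was -0.06 (adjusted p = 0.42), so its call rests on the scaling. From the Polycomb complex PRC1.6 that holds MGA, a list of 10 other subunits was read, which need not be all of them. Of these 10, 8 were lower, 1 higher and 1 did not pass, with a median of -0.33. The median of all genes tested was 0.02, with 38.9% lower and 39.5% higher. CBX3, which binds methylated histone, fell 2.50-fold, TFDP1, a dimer partner of E2F factors, 1.88-fold, RYBP 1.39-fold and YAF2 1.29-fold. RING1, a ubiquitin ligase, was the listed subunit that rose (by 0.16 on the log2 scale, chosen after its value was seen). Scaled by library totals, 3 were lower and 3 higher.

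MLX (ENSG00000108788, hg19 chromosome 17, 40719086 to 40725257) fell 2.06-fold and its partner MLXIP rose. MLX was at 62.8, 62.4 and 62.7 CPM in siOTP and 29.3, 28.9 and 32.9 CPM in siRPS19. The siOTP libraries were nearly the same, and all were far above the siRPS19 libraries. The log2 fold change was -1.04 ± 0.05 (SE, n = 3 each; adjusted p = 2.90e-13). MLX overlaps PSMC3IP on the opposite strand, which fell from a mean of 391 counts in siOTP to 33.0 in siRPS19, beside MLX counts of 1310, 1232 and 1215 against 761, 667 and 795. The part of that overlap in the fall of MLX was not tested.

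MLXIP (ENSG00000175727, hg19 chromosome 12, 122516628 to 122631894), the glucose-responsive partner, was at 81.5, 80.0 and 81.2 CPM in siOTP and 105.5, 109.3 and 101.0 CPM in siRPS19. Every siRPS19 library was higher, by a log2 fold change of 0.38 ± 0.04 (SE, n = 3 each; adjusted p = 6.63e-08). Per kilobase of transcript, the ratio of MLXIP to MLX was 0.490, 0.484 and 0.489 in siOTP and 1.36, 1.43 and 1.16 in siRPS19. MLXIP mRNA was thus below MLX in every control library and above it in every siRPS19 library by the deposited lengths, but with the longest coding transcript in GENCODE 29 as length the siRPS19 ratios were 1.11, 1.16 and 0.94, so replicate 3 was then below 1.

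Known targets of MLXIP and MLX went in different directions. TXNIP, an arrestin-like inhibitor of glucose uptake, had 5, 7 and 2 counts in siOTP and 494, 380 and 346 in siRPS19. It was nearly silent in the controls and at 16.6 ± 2.34 CPM in siRPS19 (SD, n = 3), a fitted 69.6-fold rise. ARRDC4, its relative, went from 1.47 ± 0.28 CPM to 24.4 ± 2.46 CPM (SD, n = 3 each), 16.6-fold higher. The 3 other genes of this list of 5 fell. The phosphofructokinase regulator PFKFB3 fell 1.90-fold, hexokinase gene HK2 3.50-fold, and KLF10, named after its value was seen, 1.17-fold. The median of the list was -0.23, which is the value of KLF10. All genes tested had a median of 0.02, with 39.5% higher and 38.9% lower. With library totals KLF10 was at 0.06 and lost its call, as it did with upper-quartile factors (-0.06), leaving 2 of the list lower.

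Levels of different members can be compared per kilobase of transcript length. The lengths in the deposited table appear to be those of all exons joined (5 of 10 equal the joined exon length in GENCODE 29 exactly), which lowers the level of genes with many alternative exons. In siOTP the order was MYC at 68.8 CPM per kilobase, MLX at 14.7, MAX at 8.20, MLXIP at 7.17, MXD4 at 3.83, MNT at 3.73, MXI1 at 3.32, MGA at 3.28, MXD3 at 2.70 and MXD1 at 0.54. From MXD4 down to MXD3 the libraries of each gene overlapped those of the next, so neighbours in this stretch are not resolved. In siRPS19 it was MYC at 32.3, MXD4 at 16.9, MAX at 9.51, MLXIP at 9.34, MLX at 7.13, MNT at 6.63, MXI1 at 4.91, MXD1 at 2.64, MGA at 2.58 and MXD3 at 0.44. There MAX overlapped MLXIP, MLX overlapped MNT, and MXD1 overlapped MGA.

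Set side by side within a library, the balance of MYC and antagonist mRNA was lower after RPS19 siRNA, and such a ratio does not depend on how libraries are scaled. MXD1, MXD3, MXD4, MXI1 and MNT summed to 14.7, 13.4 and 14.3 CPM per kilobase in siOTP and 31.1, 31.9 and 31.5 in siRPS19. MYC over this sum was 4.83, 5.02 and 4.78 in siOTP, and 1.06, 0.96 and 1.05 in siRPS19. MYC mRNA thus stood well above the antagonists together in each control library. By the deposited lengths it was about level with them in each siRPS19 library. With the longest coding transcript in GENCODE 29 as length, the siRPS19 ratios were 0.87, 0.79 and 0.87, so MYC was then below their sum. MYC over MAX went from 8.39 ± 0.05 to 3.39 ± 0.09 (SD, n = 3 each). These sums follow from members chosen with their changes known, so no test is given. The make-up of the sum differed too. MXD4 made up 27.1% ± 1.12 of it in siOTP and 53.6% ± 0.907 in siRPS19, and MXD3 19.1% ± 1.72 and 1.40% ± 0.121 (SD, n = 3 each).

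**Figure D3:**
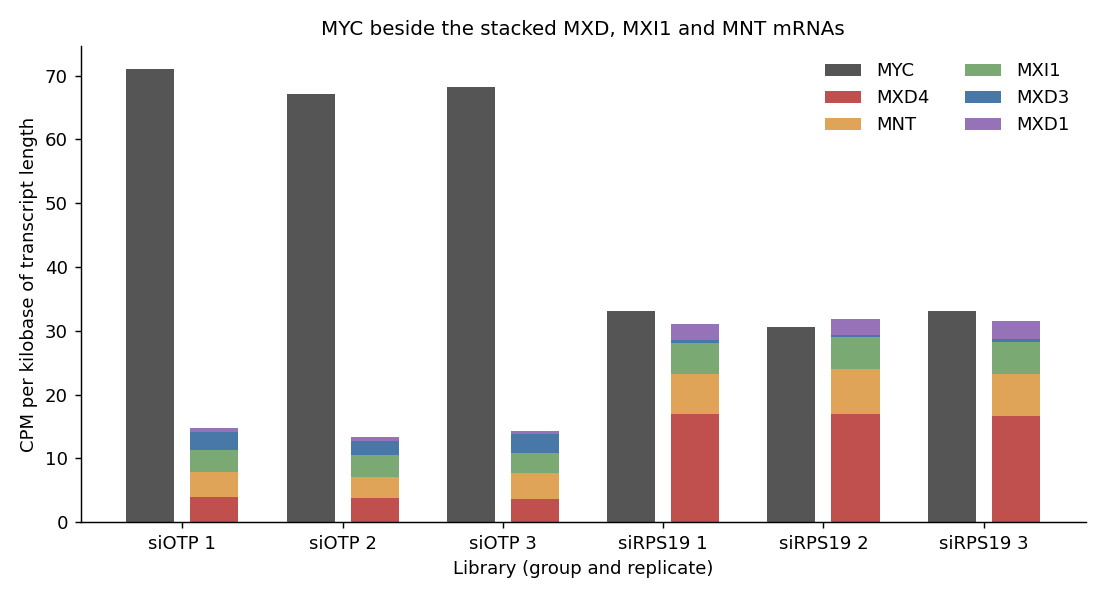
CPM per kilobase of transcript length of MYC (dark bars) and of the 5 antagonist genes stacked (coloured bars) in each of the 6 libraries. In siOTP the stack reaches 13.4 to 14.7 beside MYC at 67.1 to 71.1, and in siRPS19 it reaches 31.1 to 31.9 beside MYC at 30.6 to 33.1.

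The remaining relatives of the family were low. MYCN, the paralog known from neuroblastoma, was not tested, with a mean of 0 CPM in siOTP and 0.014 CPM in siRPS19. MYCL was at 2.07 ± 0.31 CPM in siOTP and 1.42 ± 0.14 CPM in siRPS19 (SD, n = 3 each), with adjusted p = 0.020 in edgeR's test. MLXIPL (ChREBP), the other MLX partner, was at 3.53 ± 0.88 and 4.50 ± 1.06 CPM (SD, n = 3 each) and did not pass (adjusted p = 0.10). Neither result was firm. The call on MYCL did not hold with library totals, upper-quartile factors or DESeq2, nor without siOTP replicate 2, siRPS19 replicate 1 or both libraries of replicate 1 or 2. MLXIPL passed as higher with library totals and upper-quartile factors and without either or both libraries of replicate 2.

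Genes for the corepressor that MXD proteins, MXI1 and MNT bring to DNA were mostly lower, while 4 of the 5 antagonists rose. Of 14 genes, 10 were lower, 2 higher and 2 did not pass, with a median of -0.46. Over all genes tested 38.9% were lower and 39.5% higher, with a median of 0.02. The histone-binding subunit genes RBBP4 and RBBP7 fell 3.59-fold and 1.84-fold, the scaffold SIN3A 1.97-fold, from 170 ± 5.32 to 86.5 ± 1.82 CPM, and the deacetylase HDAC2 1.55-fold. ARID4A and SIN3B rose (1.68-fold and 1.18-fold, chosen after their values were seen). With library totals, 8 were lower and 4 higher.

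Among 16 cofactors of MYC, 11 were lower, 1 higher and 4 did not pass, with a median of -0.45. Beside them, 38.9% of all genes tested were lower and 39.5% higher, with a median of 0.02. ACTL6A, a subunit shared by chromatin remodelling and acetyltransferase complexes, fell 3.61-fold, and WDR5, which tethers MYC to chromatin, 2.47-fold. The AAA+ ATPases RUVBL2 and RUVBL1 fell 2.34-fold and 1.91-fold. EP300, an acetyltransferase, was the gene that rose, by 0.16 on the log2 scale with overlapping groups (chosen after its value was seen). Under scaling by library totals, 5 of these genes were higher and 8 lower.

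Of 19 genes that act on the stability of MYC protein, 14 were lower, 3 higher and 2 did not pass, with a median of -0.50. For all genes tested the shares were 38.9% lower and 39.5% higher, and the median 0.02. The largest changes were in PLK1 (53.1-fold lower), CIP2A (17.3-fold lower) and AURKA (39.0-fold lower), of which PLK1 and AURKA are mitotic kinases, and all are known to stabilise proteins of the MYC family. SET, an inhibitor of phosphatase PP2A, fell 2.10-fold. The 3 that rose, named after their values were seen, were the ubiquitin ligase genes FBXW7 (2.51-fold, from 11.7 ± 1.25 to 29.4 ± 0.44 CPM) and TRIM32 (1.64-fold), and the kinase gene GSK3B (1.37-fold). FBXW7 recognises MYC after phosphorylation by GSK3. With library totals, 11 of the list were lower and 5 higher.

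Of 11 genes whose products act on the MYC gene or its mRNA, 10 were lower and 1 higher, with a median of -0.66. With library totals 9 were lower and the median was -0.37. On the TMM scale, 38.9% of all genes tested were lower and 39.5% higher, with a median of 0.02. ELAVL1, an RNA-binding protein, fell 2.09-fold and CTCF, an insulator protein, 2.03-fold. RPL5 and RPL11, ribosomal proteins known to bind MYC mRNA, fell 1.69-fold and 1.62-fold. PVT1, the noncoding RNA gene beside MYC, was the one that rose, from 26.4 ± 1.57 to 44.2 ± 3.36 CPM (SD, n = 3 each; chosen after its value was seen), while MYC fell.

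Genes known to be activated by MYC were lower for the most part. Of 29 tested, 26 were lower, 2 higher and 1 did not pass, with a median of -1.24. The median of all genes tested was 0.02, with 38.9% lower and 39.5% higher. DKC1, the pseudouridine synthase, fell 4.68-fold, from 303 ± 4.88 to 64.7 ± 3.03 CPM. The purine synthesis gene PAICS fell 3.89-fold, the nucleolar NPM1 3.95-fold and the lactate dehydrogenase LDHA 3.58-fold. NME1 and DNPH1 rose, by 0.35 and 0.16 on the log2 scale, and EIF4A1 was at 8.06 and 8.07 CPM (chosen after their values were seen). Genes overlapping in position were read for the network members alone, so the part of any overlap in the EIF4A1 counts was not tested. The MYC-activated list overlaps one whose fall was known from these data, so its direction is not independent evidence.

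Genes known to be repressed by MYC were divided. Of 12 tested, 5 were higher, 6 lower and 1 did not pass, with a median of -0.22. Among all genes tested 39.5% were higher and 38.9% lower, with a median of 0.02. CDKN1A (p21) rose 15.1-fold and GADD45A 2.68-fold, and each is also a p53 target. The cell cycle inhibitor CDKN2C fell 5.36-fold and NDRG1 2.57-fold. With library totals the median of this list was 0.07, beside 0.31 over all genes tested, and 6 were higher and 4 lower.

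**Figure D4:**
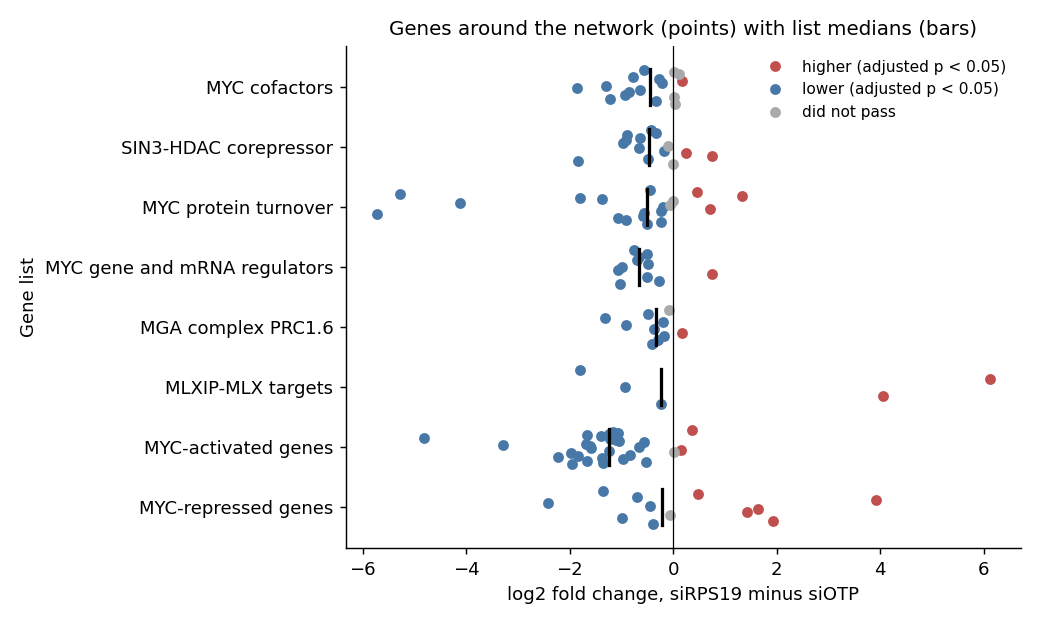
Log2 fold change of each tested gene in 8 lists around the network, with red and blue for genes higher or lower at an adjusted p under 0.05, grey for the rest, and a bar at each list's median. All 8 medians lie below 0, from -0.22 to -1.24, and the MLXIP-MLX list holds TXNIP at 6.12 and ARRDC4 at 4.05 on the right. With library totals the medians of the MLXIP-MLX and MYC-repressed lists turn positive but stay below that of all genes (0.31).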

How the data were processed

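RNA of 6 A549 samples was read as pairs on libraries of a standard Illumina TruSeq kit, per the labels' protocols, which do not say that strand was marked. The authors deposited raw read counts per Ensembl gene, made with TopHat2 2.0.8b and HTSeq on hg19 per the submitters' processing notes. How reads over several genes were counted, and which annotation was used, is not given in the sources used here. Their table of RPKM holds 1 deposited value per group, which equals the mean count plus 1 per transcript length and group total for 100% of 62729 genes (tolerance 0.0051 RPKM). It supplied symbols, hg19 coordinates and lengths, and its RPKM served as an alternative for the ratio of MYC to its antagonists alone.

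Genes were filtered with filterByExpr (minimum count 10, minimum total 15), scaled with TMM and tested with edgeR 4.0.16 (robust quasi-likelihood test, Benjamini-Hochberg over all 17171 genes, threshold 0.05) in R 4.3.3. This fit was tested on simulated data in which few genes changed, up and down about alike. That simulation therefore does not bear on the choice of scaling in these data. Each SE is the fold change over the root of its F value, and CPM values are TMM-normalised. Entries that name no gene were left out: in siOTP, 3.39% to 3.85% of entries lay outside genes and 8.10% to 8.24% were ambiguous, and in siRPS19 these shares were 5.13% to 6.36% and 7.50% to 7.60%. As alternatives, 3 scalings, 2 filters, limma-voom (limma 3.58.1), DESeq2 1.42.0, the replicate block and left-out libraries were run.

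The labels give same-numbered replicates a shared date, which pairs them, and the deviations of paired libraries correlated at 0.05, -0.10 and 0.05 across genes. Between replicates of a group the chi-square per degree of freedom was 4.40 to 16.6, above sampling noise for every pair. The members and lists were chosen with earlier results of these data known, and no test over a list was made. Named are all members, RPS19, MYCN, MYCL, MLXIPL, TXNIP, ARRDC4, up to 4 genes per list with the smallest p among those called, and the 5 genes nearest to MYC. The cell type markers named for their levels were also chosen after their values were seen, and other genes chosen so are identified where they appear.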

Additional observations from a re-analysis of the deposited data

How the results depend on the processing

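For 9 of the 10 members direction and call held in all 17 alternatives, and MYC ranged from -1.14 to -0.81, MXD4 from 2.09 to 2.43 and MXD3 from -2.72 to -2.32. MGA lost its call with library totals (-0.06, adjusted p = 0.42; adjusted p 7.32e-12 to 0.42 over all its alternatives). With the replicate block, 6 members were higher and 4 lower, and 6783 genes were higher and 6701 lower; the block changed no call on a member or count of a list. Library totals made 4 corepressor, 5 cofactor, 5 turnover and 3 PRC1.6 genes higher, 3 PRC1.6 genes lower, and of the MYC and MLX relatives 1 higher and 0 lower. Upper-quartile factors made 5 cofactors higher, 5 PRC1.6 genes lower, and of the relatives 1 higher and 0 lower. Without a filter 0 cofactors and 0 PRC1.6 genes were higher. DESeq2 called 0 relatives lower, 0 PRC1.6 genes higher and 1 MYC-activated gene higher. Leaving out 1 library, or both of a round (added after seeing the data), gave 0 to 1 relatives higher and 0 to 1 lower, 0 to 1 cofactors higher, 0 to 1 PRC1.6 genes higher and 1 to 2 MYC-activated genes higher. Medians changed sign for the relatives with library totals (0.19), upper-quartile factors (0.082) and no filter (0.31), and with library totals for MLXIP-MLX targets (0.056) and MYC-repressed genes (0.065). The median of the relatives also did so without siOTP replicate 2 (0.04) or the whole second round (0.12), in a range of -0.23 to 0.12 over the left-out rounds. All genes tested had a median of 0.31 with library totals, 0.20 with upper-quartile factors and 0.16 with no filter. Where no value above shows it, the cause was not tested. With the longest coding transcript in GENCODE 29 as length (added after seeing the data), MYC over the 5 antagonists was 3.87 in siOTP and 0.85 in siRPS19, and MXD3 moved up to the sixth member in siOTP. Counting error is larger for genes at low counts. Those at a mean under 5 CPM include MYCN, MYCL, MLXIPL and HK2 in both groups. MXD1, TXNIP and ARRDC4 were also under it in siOTP, and MXD3, TERT and CDC25A in siRPS19.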

Other observations

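Other letters were searched in the same windows of 250 bases before the starts of the same 9 members, without MYC, on both strands. CCAAT was present in 6 of the 9 members, MXD1, MXD3, MXD4, MLX, MLXIP and MGA, and in 37.0% of all genes with a window. An E2F site, searched as TTTCCCGC, TTTCGCGC, TTTGCCGC or TTTGGCGC, was present in MGA alone, and in 3.40% of all genes. The cell cycle homology region motif TTTGAA was also present in MGA alone among these 9 members, and in 16.1% of all genes. The p53 half-site consensus matched in none of these 9 members, and in 6.80% of all genes. MAX, MGA and MXI1 have more than 1 annotated start, and all their windows were read.

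TERT, the catalytic subunit of telomerase and a gene of the MYC-activated list, had 260, 230 and 236 counts in siOTP and 11, 8 and 12 in siRPS19. It was the largest fall of that list, 28.2-fold, and was chosen after its value was seen. CDC25A, a phosphatase that activates cyclin-dependent kinases, went from 33.4 ± 1.68 CPM to 3.42 ± 0.61 CPM (SD, n = 3 each), 9.75-fold lower, and was also chosen after its value was seen. CDK4 of the same list, chosen in the same way, fell 1.58-fold.

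The authors' deposited table gives MYC an RPKM of 62.12 in siOTP and 35.51 in siRPS19, with 3.46 and 18.56 for MXD4, and 2.45 and 0.50 for MXD3. For MGA the authors' deposited table gives 2.96 and 2.84.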
